A study of Homo sapiens with 16 samples.

Results

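The knockdown experiment of this study held a difference that its design did not name. On the main axis of variation, the 4 libraries numbered replicate 3 or 4 stood apart from the 4 numbered replicate 1 or 2. This held whichever oligonucleotide the cells had received. These 8 libraries of the 16 in the series are described here. All were RNA-Seq libraries of total RNA from hiPSC-CMs, cardiomyocytes differentiated from human induced pluripotent stem cells, here of a single established line, WTC-11, kept in RPMI medium with B27 and used between day 15 and day 35 of culture. The cells had been transfected by lipofectamine with a scrambled oligonucleotide (4 libraries, the control) or with LNA GapmeRs, antisense oligonucleotides that lead RNase H to a nuclear transcript, directed at the long noncoding RNA LINC00881 (4 libraries). The other 8 libraries, from a plasmid overexpression experiment, were not part of the comparison. Replicates 3 and 4 (2 scrambled, 2 GapmeR) were set against replicates 1 and 2 (2 scrambled, 2 GapmeR), with knockdown against control as a term of the model, and the scrambled libraries alone are given beside it.

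The 2 sets were chosen by measured values, the first principal component of these same libraries, so every difference between them below is a description and is given with no p-value. That component held 33.5% of the variance and the second 23.5%. On the second component the sets did not separate. Scrambled replicates 1 and 2 lay on the same side as GapmeR replicates 3 and 4, and the other libraries lay on the opposite side. The labels call the replicates biological, and neither they nor the study's methods say what a replicate number stands for, such as a differentiation, a day of culture or a run of library preparation. In the sample numbers of the titles, replicates 1 and 2 come before replicates 3 and 4 within each treatment. Across the treatments the sets are interleaved. What separated the sets was not recorded in the sources used here, and culture age, differentiation and handling cannot be told apart.

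Directed differentiation of pluripotent cells gives cardiomyocytes of mixed chamber character. Ventricular cells come to use the myosin light chain MYL2 under transcription factors such as IRX4 and HEY2, atrial cells depend on NR2F2 and make the natriuretic peptide NPPA, and early or second heart field cells carry ISL1. In the developing heart the muscle cells also pass through a stage in which they make smooth muscle contractile proteins, and cultures can hold fibroblasts, smooth muscle cells and endodermal cells. In a bulk library fewer cells of a type and less RNA per cell cannot be told apart.

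LINC00881 (chr3:157089881-157101135, GRCh38, GENCODE 29) was measured first, as the target of the GapmeR. Levels are given as CPM, the count per 1000000 counts of a library whose size was scaled by TMM, which corrects for library composition. LINC00881 had 126 and 149 CPM in scrambled replicates 1 and 2, 11.3 and 26.7 CPM in GapmeR replicates 1 and 2, 54.9 and 54.8 CPM in scrambled replicates 3 and 4, and 19.7 and 21.8 CPM in GapmeR replicates 3 and 4. Every GapmeR library lay below every scrambled library, as labelled. Between the sets it differed by -0.61 ± 0.34 (SE) in all 8 libraries, -1.32 in the scrambled and 0.13 in the GapmeR libraries, on the log2 scale, and the sets overlapped. The scrambled libraries of replicates 3 and 4 held less LINC00881 than those of replicates 1 and 2.

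Library totals ran from 26979162 to 37332620 counts, with means of 34614400 in replicates 1 and 2 and 32583900 in replicates 3 and 4, and the totals of the sets overlapped. Other library measures did not overlap between the sets. Mitochondrially encoded transcripts took 22.7% to 23.6% of counts in replicates 1 and 2 and 18.7% to 19.8% in replicates 3 and 4, the 50 most abundant genes took 31.3% to 32.5% and 27.4% to 28.3%, and 23799 to 26248 and 26984 to 29208 gene symbols had at least 1 count. Their part in the differences below was not tested.

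A total of 18127 genes passed the filter on low counts. A gene was counted as higher or lower in replicates 3 and 4 when its 4 CPM values there all lay above or all below the 4 in replicates 1 and 2 and the fitted log2 difference was at least 1 in size. By this rule 791 genes (4.36% of those tested) were higher and 552 (3.05%) were lower, and 589 and 337 of them were protein-coding. Among protein-coding genes of at least 5 CPM whose sets did not overlap, C1orf53 (1.001) and MAN2B1 (1.001) were just inside the threshold and FAM117B (0.999) and the smooth muscle gene TAGLN (0.994) just outside. On the lower side C1orf74 (-1.001) and C6orf226 (-1.001) were just inside and SPRY1 (-0.999) and ZNF563 (-0.997) just outside. Differences are given on the log2 scale as replicates 3 and 4 over 1 and 2, and their median over all genes was 0.02. The value after ± is an approximate standard error, derived from the test statistic of the fit.

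In the scrambled libraries alone, 2 against 2, 2263 genes (12.5%) were higher and 1257 (6.93%) were lower by the same rule. In the GapmeR libraries alone 2086 (11.5%) were higher and 1792 (9.89%) lower. The scrambled and GapmeR comparisons share no library. Of their genes, 675 were higher in both and 413 lower in both, while 383 were higher in the scrambled and lower in the GapmeR libraries and 91 the other way round. Across the 18127 genes, which are not independent replicates, the set difference in the scrambled libraries had a Spearman correlation of 0.21 and a Pearson correlation of 0.13 with that in the GapmeR libraries.

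**Figure D1:**
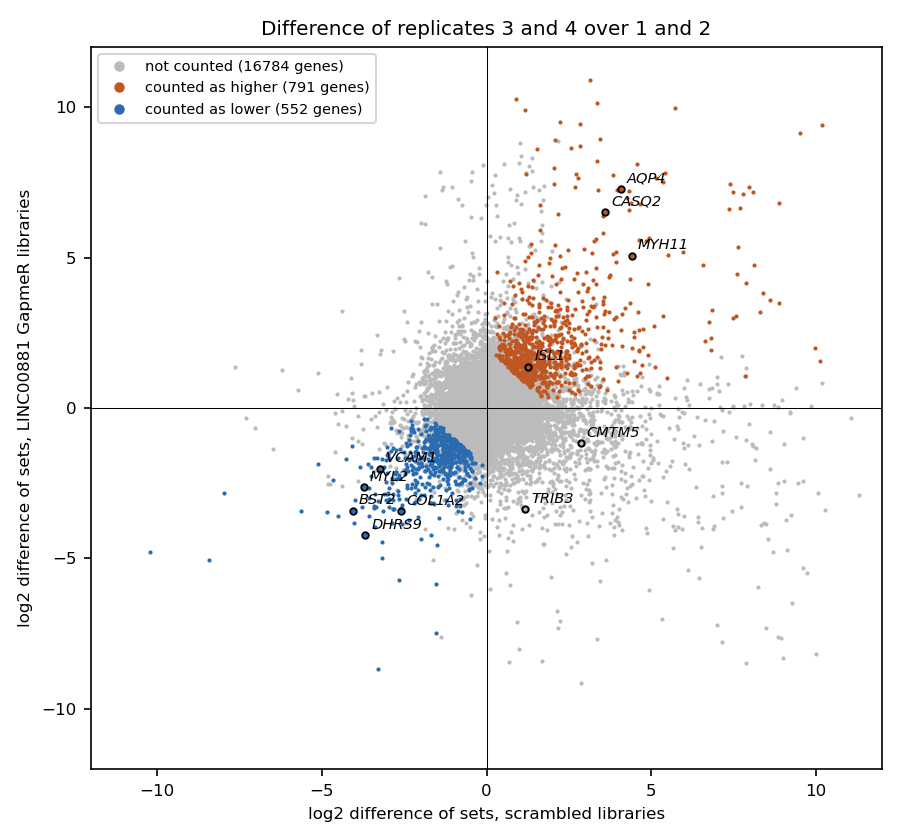
Each point is 1 of 18127 genes, with the log2 difference of replicates 3 and 4 over 1 and 2 in the scrambled libraries on the x axis and in the LINC00881 GapmeR libraries on the y axis. The 791 genes counted as higher (orange) and the 552 counted as lower (blue) lie in the upper right and lower left by the rule that chose them, and CMTM5 and TRIB3 are among the uncounted genes (grey) whose differences have opposite signs.

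The ventricular genes MYL2, IRX4 and HEY2 were lower in replicates 3 and 4, and the slow myosin heavy chain MYH7, the atrial genes NPPA, NR2F2 and BMP10 and the progenitor factor ISL1 were higher. MYL2 (chr12:110910819-110920722), the regulatory light chain of ventricular myosin, had 223 and 213 CPM in the scrambled and 109 and 161 CPM in the GapmeR libraries of replicates 1 and 2, against 16.7 and 16.2 CPM and 20.1 and 23.5 CPM in those of replicates 3 and 4. The sets did not overlap, with a log2 difference of -3.18 ± 0.25 (SE) in all 8 libraries, -3.73 in the scrambled and -2.63 in the GapmeR libraries. IRX4, an Iroquois factor of ventricular muscle, had 24.01 and 29.7 CPM in scrambled replicates 3 and 4 and 19.9 and 16.4 CPM in GapmeR replicates 3 and 4, where replicates 1 and 2 had 118 and 104 CPM with the scrambled oligonucleotide and 60.5 and 81.9 CPM with the GapmeR, a difference of -2.01 ± 0.15 (SE) in all 8 libraries, -2.05 in the scrambled and -1.97 in the GapmeR libraries. HEY2, a NOTCH-pathway repressor of compact ventricular myocardium, ranged from 6.34 to 16.5 CPM in replicates 1 and 2 and 2.20 to 3.46 CPM in replicates 3 and 4 (-1.99 ± 0.28). The connexin GJA1 ranged from 29.8 to 49.1 CPM in replicates 1 and 2 and 18.6 to 32.3 CPM in replicates 3 and 4, and its sets overlapped. MYH7, the slow beta-myosin heavy chain, was the 1 ventricular gene counted as higher, with 2841 and 2347 CPM in scrambled replicates 1 and 2, 1331 and 1528 CPM in GapmeR replicates 1 and 2, 4182 and 3905 CPM in scrambled replicates 3 and 4, and 5301 and 4524 CPM in GapmeR replicates 3 and 4. Its highest library in replicates 1 and 2 was a scrambled one and its lowest a GapmeR one, so the difference was 0.64 in the scrambled and 1.78 in the GapmeR libraries. MYH6, the alpha heavy chain of atrial and fetal muscle, differed by -0.59 with overlapping sets. Of 12 ventricular genes tested, 1 was higher and 3 lower, with a median difference of -0.51. That median was -0.84 in the scrambled and -0.13 in the GapmeR libraries alone.

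Of 11 atrial genes tested, 4 were higher (NPPA, NR2F2, BMP10 and SLN) and 1 lower (KCNJ3), with a median of 0.83. That median was 0.45 in the scrambled and 0.42 in the GapmeR libraries alone. NPPA, which encodes atrial natriuretic peptide, had 126 and 123 CPM in scrambled replicates 3 and 4 and 165 and 165 CPM in GapmeR replicates 3 and 4, where replicates 1 and 2 had 61.6 and 62.7 CPM with the scrambled oligonucleotide and 58.4 and 67.7 CPM with the GapmeR, a difference of 1.19 ± 0.11. NR2F2, the nuclear receptor that specifies atrial identity, ranged from 1.29 to 3.63 CPM in replicates 1 and 2 and 7.61 to 11.5 CPM in replicates 3 and 4. BMP10, a growth factor of atrial and trabecular muscle, was near the limit of detection in replicates 1 and 2, with at most 0.695 CPM, and had 4.70 to 8.61 CPM in replicates 3 and 4. SLN, the atrial inhibitor of the calcium pump, stayed under 1 CPM in every library. KCNJ3, a subunit of the acetylcholine-gated potassium channel, ranged from 1.12 to 3.51 CPM in replicates 1 and 2 and 0.340 to 0.880 CPM in replicates 3 and 4. ISL1, a factor of second heart field progenitors and pacemaker cells, was higher too, with 137 and 139.8 CPM in scrambled replicates 1 and 2, 146 and 116 CPM in GapmeR replicates 1 and 2, 337 and 329.7 CPM in scrambled replicates 3 and 4, and 344 and 335 CPM in GapmeR replicates 3 and 4. It was about as much higher in the scrambled (1.27) as in the GapmeR libraries (1.37), and of the 22 cardiac transcription factors tested only ISL1 and HOPX were counted, both as higher. The stretch-responsive genes NPPB, encoding B-type natriuretic peptide, and FHL1 were higher too: NPPB ranged from 11.5 to 24.9 CPM in replicates 1 and 2 and 32.2 to 86.6 CPM in replicates 3 and 4 and FHL1 from 60.6 to 82.2 CPM in replicates 1 and 2 and 169 to 206 CPM in replicates 3 and 4.

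**Figure D2:**
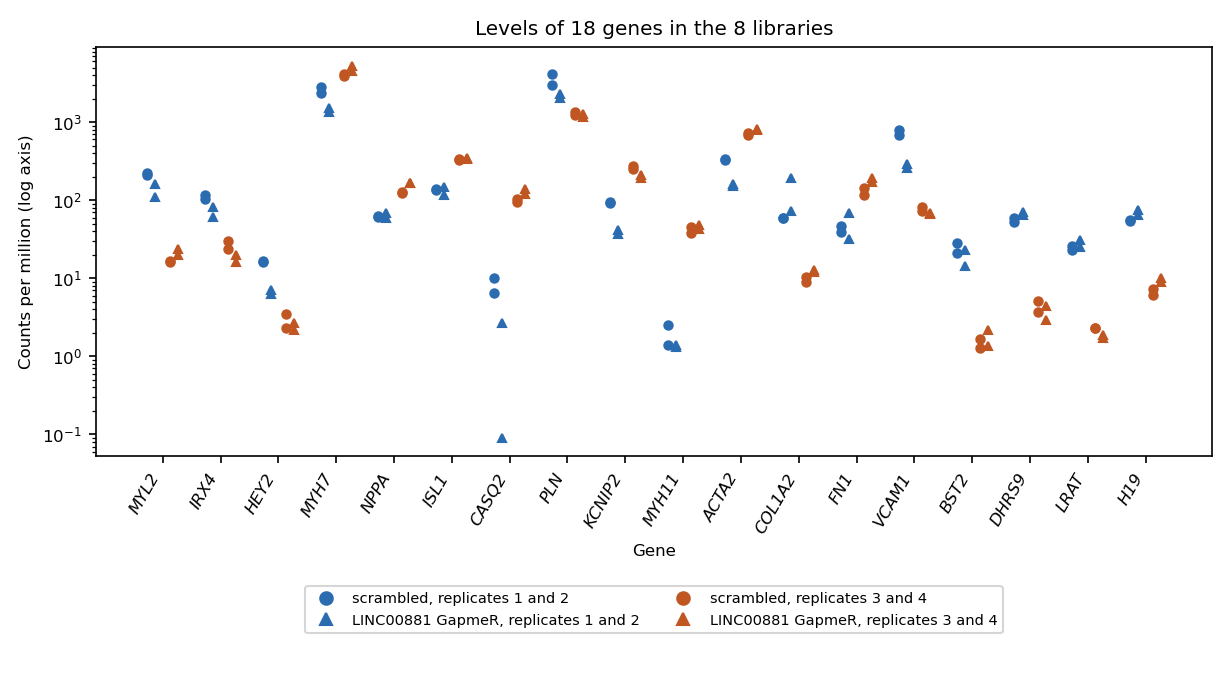
Levels of 18 genes (x axis) in CPM on a log y axis, 1 symbol per library: circles are scrambled and triangles LINC00881 GapmeR libraries, blue is replicates 1 and 2 and orange replicates 3 and 4. MYL2 sits between 109 and 223 CPM in blue and between 16.2 and 23.5 CPM in orange, and for each of the 18 genes the 2 colours do not overlap.

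The sarcomere genes went in both directions, and their summed level went opposite ways in the scrambled and GapmeR libraries. Of 38 genes tested 2 were higher (MYH7 and the slow skeletal troponin TNNT1) and 2 lower (MYL2 and the Z-disc and nuclear LIM protein CSRP3), with a median of -0.01, a sign that turns positive under the DESeq2 scaling, and 19 of the 38 differences were above 0. The summed level of the list was 59712 and 57246 CPM in scrambled replicates 1 and 2 and lower, 46544 and 44700.4 CPM, in scrambled replicates 3 and 4. In the GapmeR libraries it was 36494 and 40667 CPM in replicates 1 and 2 and higher, 43433 and 42505 CPM, in replicates 3 and 4. CSRP3 had 675 and 817 CPM in the scrambled and 1169.9 and 1184 CPM in the GapmeR libraries of replicates 1 and 2, against 502 and 485 CPM and 410.3 and 406 CPM in those of replicates 3 and 4. Its difference was -0.60 in the scrambled and -1.53 in the GapmeR libraries. The Z-disc actinin ACTN2 ranged from 1541 to 2190.2 CPM in replicates 1 and 2 and 1608 to 1716 CPM in replicates 3 and 4 and was not counted. TNNT2, the defining cardiac troponin T, had 19.7 to 58.4 CPM over the 8 libraries, and its sets overlapped. This is low for a marker that defines the cell type and may not be its true level. In the annotation 81 of its 7259 exon bases are shared with another gene. The effect of counting shared or multiply mapped reads was not tested.

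Calcium handling genes differed in both directions, CASQ2 being higher and PLN lower. CASQ2 (chr1:115700007-115768781), calsequestrin, the calcium buffer of the sarcoplasmic reticulum, had 6.41 and 10.02 CPM in the scrambled and 0.0907 and 2.71 CPM in the GapmeR libraries of replicates 1 and 2, against 94.2 and 104 CPM and 139.5 and 119 CPM in those of replicates 3 and 4. It was thus close to absent in GapmeR replicate 1 and between 94.2 and 139.5 CPM in every library of replicates 3 and 4, a log2 difference of 4.93 ± 0.82 (SE) in all 8 libraries, 3.59 in the scrambled and 6.53 in the GapmeR libraries. PLN, phospholamban, the inhibitor of the calcium pump, went the other way, with 1226 and 1349.7 CPM in scrambled replicates 3 and 4 and 1148 and 1272 CPM in GapmeR replicates 3 and 4, where replicates 1 and 2 had 2976 and 4159.9 CPM with the scrambled oligonucleotide and 2063 and 2315 CPM with the GapmeR (-1.16 ± 0.16). RYR2, the calcium release channel, had 89.1 and 82.3 CPM in scrambled replicates 1 and 2, 25.6 and 56.3 CPM in GapmeR replicates 1 and 2, 211 and 189 CPM in scrambled replicates 3 and 4, and 98.7 and 85.8 CPM in GapmeR replicates 3 and 4. Within each treatment RYR2 was higher in replicates 3 and 4 (1.22 and 1.17), but a scrambled library of replicates 1 and 2 lay above the lowest GapmeR library of replicates 3 and 4, so it was not counted. CACNA2D1, a subunit of the L-type calcium channel, ranged from 1.88 to 10.3 CPM in replicates 1 and 2 and 12.4 to 15.7 CPM in replicates 3 and 4. The difference of CACNA2D1 was 0.54 in the scrambled and 2.26 in the GapmeR libraries. Among the 28 genes tested of this list 4 were counted as higher (SLN, CASQ2, CACNA2D1 and ITPR2) and 2 as lower (PLN and CACNA1G), with medians of 0.27, and -0.17 and 0.66 in the scrambled and GapmeR libraries alone.

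Among 21 channel and connexin genes 4 were higher, among them KCND3, KCNIP2 and KCNK3, and 2 lower (KCNJ3 and KCNJ5), with a median of -0.21. KCNIP2, the subunit that shapes the transient outward potassium current, had 92.7 and 95.2 CPM in the scrambled and 36.6 and 41.4 CPM in the GapmeR libraries of replicates 1 and 2, against 277 and 251 CPM and 192 and 210.3 CPM in those of replicates 3 and 4. Its difference was 1.49 in the scrambled and 2.36 in the GapmeR libraries. KCNJ5, a partner of KCNJ3 in the acetylcholine-gated channel, ranged from 123 to 131 CPM in replicates 1 and 2 and 42.2 to 84.3 CPM in replicates 3 and 4. The difference of KCNJ5 was -0.63 in the scrambled and -1.45 in the GapmeR libraries. KCNQ1, a slow delayed rectifier channel, had 27.6 and 24.6 CPM in scrambled and 7.56 and 10.5 CPM in GapmeR replicates 1 and 2. It had 7.06 to 10.4 CPM in replicates 3 and 4. Its sets overlapped, with differences of -1.48 in the scrambled and -0.24 in the GapmeR libraries.

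A group of smooth muscle contractile genes was higher in replicates 3 and 4. MYH11 (chr16:15703172-15857033), smooth muscle myosin heavy chain, had 2.55 and 1.40 CPM in scrambled replicates 1 and 2, 1.39 and 1.32 CPM in GapmeR replicates 1 and 2, 37.8 and 45.9 CPM in scrambled replicates 3 and 4, and 48.3 and 42.8 CPM in GapmeR replicates 3 and 4. The 4 libraries of each set lay close together, and the difference was 4.73 ± 0.26 (SE) in all 8 libraries, 4.41 in the scrambled and 5.07 in the GapmeR libraries. ACTA2, smooth muscle actin, had 340.5 and 323 CPM in the scrambled and 163 and 153 CPM in the GapmeR libraries of replicates 1 and 2, against 718 and 683 CPM and 823 and 793 CPM in those of replicates 3 and 4. CNN1, calponin, ranged from 44.2 to 50.3 CPM in replicates 1 and 2 and 95.7 to 159 CPM in replicates 3 and 4, and SMTN, smoothelin, from 14.3 to 24.6 CPM in replicates 1 and 2 and 44.1 to 47.8 CPM in replicates 3 and 4. MYH11, ACTA2 and SMTN share exon bases with genes on the opposite strand, whose reads the unstranded counting did not tell apart. In all, 4 of 9 smooth muscle and pericyte markers were higher and none lower (median 1.20), and their summed level was 517 to 649.7 CPM in replicates 1 and 2 and 1189 to 1509 CPM in replicates 3 and 4.

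Matrix genes differed in both directions. COL1A2, a chain of type I collagen, had 58.8 and 59.6 CPM in the scrambled and 195 and 73.01 CPM in the GapmeR libraries of replicates 1 and 2, against 10.5 and 8.90 CPM and 12.9 and 12.1 CPM in those of replicates 3 and 4, a difference of -3.02 ± 0.32 (SE) in all 8 libraries, -2.61 in the scrambled and -3.42 in the GapmeR libraries. Its partner chain COL1A1 ranged from 17.4 to 24.9 CPM in replicates 1 and 2 and 15.2 to 18.5 CPM in replicates 3 and 4 and was not counted. COL3A1, fibrillar collagen III, ranged from 5.17 to 14.4 CPM in replicates 1 and 2 and 19.5 to 33.1 CPM in replicates 3 and 4, the opposite direction from COL1A2. The difference of COL3A1 was 0.54 in the scrambled and 2.05 in the GapmeR libraries. FN1, fibronectin, had 145 and 118 CPM in scrambled replicates 3 and 4 and 193 and 173 CPM in GapmeR replicates 3 and 4, where replicates 1 and 2 had 46.4 and 38.7 CPM with the scrambled oligonucleotide and 68.4 and 31.8 CPM with the GapmeR. SPARC, a collagen-binding matricellular protein, ranged from 55.8 to 78.5 CPM in replicates 1 and 2 and 140.4 to 232 CPM in replicates 3 and 4, and the microfibril gene FBN1 from 0.859 to 2.80 CPM in replicates 1 and 2 and 6.65 to 14.4 CPM in replicates 3 and 4. NID1, nidogen, which links laminin and collagen IV in basement membranes, had 17.3 and 14.6 CPM in scrambled replicates 1 and 2, 9.22 and 7.32 CPM in GapmeR replicates 1 and 2, 45.6 and 60.9 CPM in scrambled replicates 3 and 4, and 72.8 and 53.5 CPM in GapmeR replicates 3 and 4. The laminin and collagen receptor chain ITGA1 ranged from 0.0308 to 2.58 CPM in replicates 1 and 2 and 5.51 to 9.21 CPM in replicates 3 and 4. Of 35 collagen and matrix genes 8 were higher and 1 lower, with medians of 0.52, and 0.05 and 0.88 in the scrambled and GapmeR libraries alone, and of 24 laminin, basement membrane and integrin genes 4 were higher and 1 lower (median 0.61).

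Markers of other cell types were read beside these genes. All 12 cardiomyocyte markers were detected, with a summed level of 22157 to 38194 CPM in replicates 1 and 2 and 25114 to 28268 CPM in replicates 3 and 4, and 2 were higher and 1 lower. The 12 fibroblast markers summed to 214 to 302 CPM in replicates 1 and 2 and 121 to 155 CPM in replicates 3 and 4, beside the 58.8 to 195 and 8.90 to 12.9 CPM of COL1A2 alone. Of 11 tested, 2 were higher (COL3A1 and POSTN) and 1 lower (COL1A2), with 5 differences above 0 and 6 below. POSTN, periostin, a matricellular protein of activated fibroblasts, ranged from 0 to 0.630 CPM in replicates 1 and 2 and 1.78 to 3.37 CPM in replicates 3 and 4. Endothelial cells were all but absent by their defining markers: PECAM1, CDH5 and VWF reached at most 0.569, 0.362 and 0.0776 CPM in any library, and ERG had no count. The endothelial sum of 77.4 to 122 CPM in replicates 1 and 2 and 34.9 to 54.6 CPM in replicates 3 and 4 was nearly that of KDR alone, a VEGF receptor also made by cardiac progenitors (76.7 to 121 CPM in replicates 1 and 2 and 33.3 to 54.5 CPM in replicates 3 and 4). The 8 epicardial and mesothelial markers summed to 59.8 to 102 CPM in replicates 1 and 2 and 42.6 to 55.4 CPM in replicates 3 and 4, most of it from LRRN4, a mesothelial membrane protein with 55.2 to 96.3 CPM in replicates 1 and 2 and 41.4 to 52.9 CPM in replicates 3 and 4, while WT1 reached at most 3.20 CPM. None of the 5 tested was counted. Hepatic and endodermal markers summed to 68.9 to 159 CPM in replicates 1 and 2 and 197 to 236 CPM in replicates 3 and 4, and 4 of 12 tested were higher and none lower, with a median of 1.18. Among them APOA1, an apolipoprotein of liver, gut and yolk sac, had 33.8 and 31.3 CPM in scrambled replicates 1 and 2, 27.2 and 17.2 CPM in GapmeR replicates 1 and 2, 62.3 and 62.9 CPM in scrambled replicates 3 and 4, and 67.8 and 71.2 CPM in GapmeR replicates 3 and 4. TTR, transthyretin, ranged from 12.6 to 20.5 CPM in replicates 1 and 2 and 33.2 to 47.1 CPM in replicates 3 and 4, and APOA2 from 3.75 to 8.99 CPM in replicates 1 and 2 and 10.2 to 21.4 CPM in replicates 3 and 4. FOXA2, the endoderm factor, had no count in any of the 4 libraries of replicates 1 and 2 and 0.326 to 0.828 CPM in replicates 3 and 4, at least 21.5-fold higher against a floor of 3 counts over the group, and the median of the list with FOXA2 at that bound was again 1.18. AFP, alpha-fetoprotein, did not separate the sets (18.03 to 54.2 CPM in replicates 1 and 2 and 45.6 to 51.1 CPM in replicates 3 and 4), and FGA, a fibrinogen chain, overlapped through 1 scrambled library. The part of these cells in the cardiac differences was not tested.

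The epithelial markers EPCAM and KRT19 were lower, and ESRP1 was higher. EPCAM, an epithelial adhesion protein of early endoderm and pluripotent cells, had 42.9 and 61.7 CPM in the scrambled and 41.5 and 82.5 CPM in the GapmeR libraries of replicates 1 and 2, against 10.6 and 15.6 CPM and 16.97 and 18.2 CPM in those of replicates 3 and 4. The keratin KRT19, which immature cardiomyocytes can also make, ranged from 471 to 717 CPM in replicates 1 and 2 and 187 to 215 CPM in replicates 3 and 4. The epithelial sum of 3368 to 4678 CPM in replicates 1 and 2 and 2448 to 3104 CPM in replicates 3 and 4 lay beside 1264 to 1881 and 999 to 1316 CPM of the keratin KRT8 alone. Of 4 neural markers tested 2, PAX6 and DCX, were higher. PAX6, a factor of eye and forebrain that overlaps an opposite-strand gene, ranged from 0.272 to 1.44 CPM in replicates 1 and 2 and 8.15 to 10.8 CPM in replicates 3 and 4, and SOX1 reached at most 0.0517 CPM in any library while NEUROD1 had no count. The sum of the 10 neural markers overlapped between the sets (53.2 to 108 CPM in replicates 1 and 2 and 106 to 169.6 CPM in replicates 3 and 4), as did that of the 10 pluripotency markers (93.9 to 122 CPM in replicates 1 and 2 and 101 to 124 CPM in replicates 3 and 4).

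**Figure D3:**
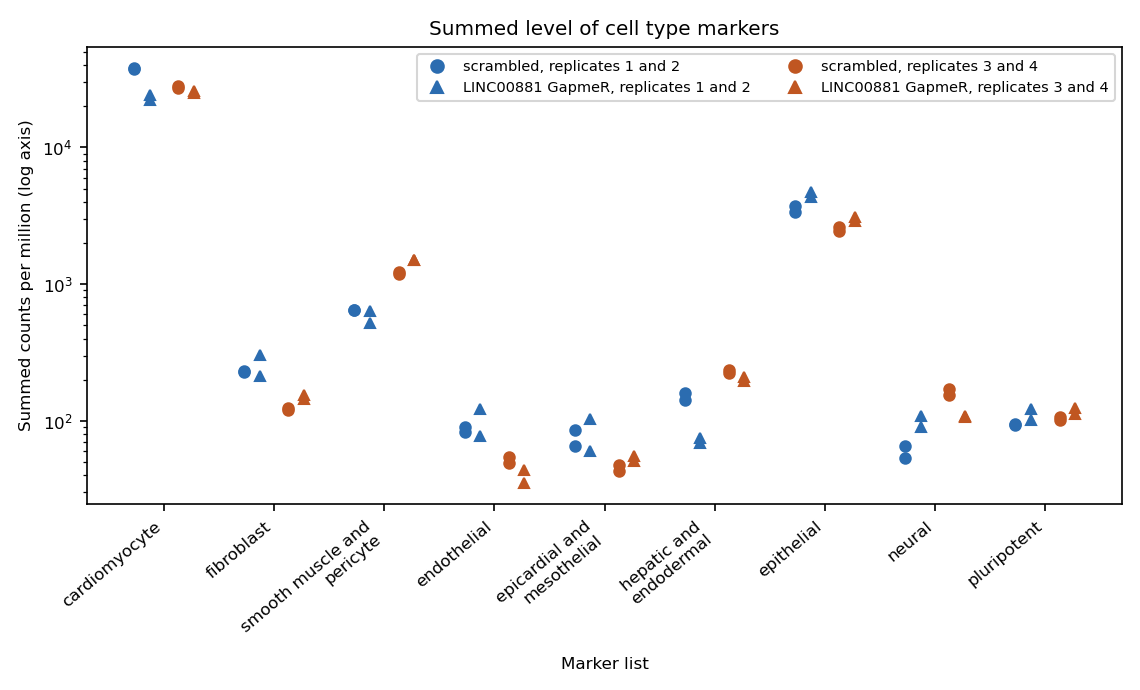
Summed CPM (log y axis) of 9 cell type marker lists (x axis) in each of the 8 libraries, with circles for scrambled and triangles for LINC00881 GapmeR libraries, blue for replicates 1 and 2 and orange for replicates 3 and 4. The cardiomyocyte, neural and pluripotent sums overlap between the colours, smooth muscle and hepatic sums are higher in orange and fibroblast, endothelial, epicardial and epithelial sums are lower.

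A group of interferon-stimulated genes was lower in replicates 3 and 4, in the scrambled and in the GapmeR libraries. Type I interferon acts through a factor complex that holds STAT2 and IRF9 and binds the interferon-stimulated response element, a repeat of GAAA separated by a pair of bases. Of 39 listed genes 38 were in the table and 21 passed the filter on low counts, and of these none was higher and 7 were lower (IFIT2, IFIT3, IFIT5, ISG15, IFI35, IRF7 and BST2), with medians of -1.37, and -1.51 and -1.25 in the scrambled and GapmeR libraries alone. The promoters of 3 of them and of EPSTI1, an interferon-induced gene among the 12 lowest protein-coding genes given further on, are printed because they carry this repeat. Each run is the 150 bases before the transcription start, 5′ to 3′ on the gene's strand, from RefSeq on GRCh38.p14, and capitals mark GAAANNGAAA on either strand.
BST2, chr19:17405631-17405780, minus strand: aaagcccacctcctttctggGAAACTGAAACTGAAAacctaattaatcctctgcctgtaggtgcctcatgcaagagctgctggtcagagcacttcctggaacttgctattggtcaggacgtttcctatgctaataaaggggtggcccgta
ISG15, chr1:1013347-1013496, plus strand: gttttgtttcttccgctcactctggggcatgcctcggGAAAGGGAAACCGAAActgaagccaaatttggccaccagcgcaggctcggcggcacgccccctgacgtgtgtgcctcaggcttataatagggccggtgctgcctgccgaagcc
IFIT5, chr10:89414418-89414567, plus strand: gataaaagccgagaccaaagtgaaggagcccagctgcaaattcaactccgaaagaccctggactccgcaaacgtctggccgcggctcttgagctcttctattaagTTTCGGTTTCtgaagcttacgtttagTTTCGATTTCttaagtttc
EPSTI1, chr13:42992242-42992391, minus strand: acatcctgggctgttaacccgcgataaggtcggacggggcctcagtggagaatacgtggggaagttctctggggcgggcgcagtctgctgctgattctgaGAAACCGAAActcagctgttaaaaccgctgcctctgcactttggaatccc

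BST2, tetherin, the membrane protein that holds budding virions, had 21.4 and 28.02 CPM in the scrambled and 22.98 and 14.3 CPM in the GapmeR libraries of replicates 1 and 2, against 1.29 and 1.66 CPM and 2.17 and 1.36 CPM in those of replicates 3 and 4. No library of one set reached the range of the other, and the difference was -3.73 ± 0.29 (SE) in all 8 libraries, -4.06 in the scrambled and -3.41 in the GapmeR libraries. ISG15, a ubiquitin-like protein conjugated during the response, had 48.2 and 45.03 CPM in scrambled replicates 3 and 4 and 45.1 and 43.7 CPM in GapmeR replicates 3 and 4, where replicates 1 and 2 had 117 and 148 CPM with the scrambled oligonucleotide and 143 and 76.8 CPM with the GapmeR (-1.41 ± 0.19). EPSTI1 ranged from 7.88 to 13.3 CPM in replicates 1 and 2 and 0.470 to 1.15 CPM in replicates 3 and 4, and IFIT5, an RNA-binding member of the IFIT family, from 40.4 to 57.02 CPM in replicates 1 and 2 and 20.8 to 26.1 CPM in replicates 3 and 4. IRF7, the factor that amplifies interferon transcription, ranged from 13.3 to 35.1 CPM in replicates 1 and 2 and 5.97 to 8.03 CPM in replicates 3 and 4, with its highest value in GapmeR replicate 1. IFI6, a mitochondrial interferon-induced protein, differed by -1.48 ± 0.21 but overlapped. In the BST2 and ISG15 promoters the repeat lay in a single run starting 130 and 113 bases before the start, in EPSTI1 50 bases before it, and IFIT5 had 2 runs, the first 45 bases before it. The motif was chosen after the values were seen. It was present in this window in 594 of 27305 genes with a promoter in the table (2.18%). Among genes with such an entry, it was in 220 of 11883 genes tested (1.85%), 10 of 495 higher genes (2.02%) and 17 of 300 lower genes (5.67%). It was also in 10 of the 16 interferon list genes with an entry. The rest of the 791 higher and 552 lower genes had no entry and were not scanned. A match is a description of the letters, not of binding.

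VCAM1, an adhesion molecule induced by inflammatory signals and also made by cardiac mesoderm and its early muscle, was lower, with 691 and 783 CPM in scrambled replicates 1 and 2, 289 and 256 CPM in GapmeR replicates 1 and 2, 83.1 and 73.3 CPM in scrambled replicates 3 and 4, and 69.3 and 65.96 CPM in GapmeR replicates 3 and 4. Its difference was -2.62 ± 0.24 (SE) in all 8 libraries, -3.24 in the scrambled and -2.01 in the GapmeR libraries. TNFAIP3, an inhibitor of NF-kB signaling, ranged from 3.41 to 9.64 CPM in replicates 1 and 2 and 0.576 to 3.34 CPM in replicates 3 and 4. The difference of TNFAIP3 was -0.45 in the scrambled and -2.65 in the GapmeR libraries. Of 11 NF-kB and inflammatory genes these 2 were lower and none higher. The secreted adenosine deaminase ADA2 had 18.3 to 23.5 CPM in replicates 1 and 2 and 1.92 to 3.29 CPM in replicates 3 and 4.

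Enzymes that make and store retinoids were among the lowest genes of the contrast. DHRS9, a short-chain dehydrogenase that oxidizes retinol, had 52.6 and 59.8 CPM in the scrambled and 69.96 and 65.4 CPM in the GapmeR libraries of replicates 1 and 2, against 5.07 and 3.68 CPM and 4.41 and 2.91 CPM in those of replicates 3 and 4. LRAT, which esterifies retinol for storage, had 2.28 and 2.32 CPM in scrambled replicates 3 and 4 and 1.88 and 1.73 CPM in GapmeR replicates 3 and 4, where replicates 1 and 2 had 22.9 and 25.6 CPM with the scrambled oligonucleotide and 31.3 and 25.2 CPM with the GapmeR. Both separated the sets by a wide gap, -3.94 ± 0.21 and -3.68 ± 0.21 on the log2 scale. In the retinoic acid list, which does not hold either of them, 3 of 13 genes were higher, among them CYP26B1 and NR2F2, and 1 lower (TGM2), with a median of -0.04. TGM2, a transglutaminase whose transcription retinoic acid induces, ranged from 208 to 442 CPM in replicates 1 and 2 and 93.5 to 146 CPM in replicates 3 and 4. The receptor RARB differed by -1.63 ± 0.46 with overlap.

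Secreted signals differed gene by gene. BMP5, a bone morphogenetic protein, had 333 and 410.3 CPM in the scrambled and 218 and 252 CPM in the GapmeR libraries of replicates 1 and 2, against 80.1 and 84.8 CPM and 70.6 and 66.5 CPM in those of replicates 3 and 4 (-1.97 ± 0.12). RSPO3, an R-spondin that amplifies WNT signaling, had 11.8 and 11.7 CPM in scrambled replicates 3 and 4 and 10.3 and 7.80 CPM in GapmeR replicates 3 and 4, where replicates 1 and 2 had 60.4 and 63.99 CPM with the scrambled oligonucleotide and 54.7 and 51.9 CPM with the GapmeR (-2.48 ± 0.14). FGF18 ranged from 21.8 to 52.98 CPM in replicates 1 and 2 and 5.93 to 10.5 CPM in replicates 3 and 4, whereas FGF1 ranged from 8.68 to 14.4 CPM in replicates 1 and 2 and 37.4 to 46.2 CPM in replicates 3 and 4. The insulin-like growth factor binding protein IGFBP7 and the ERBB ligand NRG1 were higher too (1.73 and 1.98). FST, follistatin, and INHBA, a subunit of the activin that follistatin binds, were lower (-1.44 and -2.09), though INHBA had at most 6.75 CPM in the scrambled libraries. Of 26 TGF-beta and BMP genes 2 were higher and 3 lower, of 18 WNT genes 2 and 1, and of 28 FGF, ERBB, IGF and PDGF genes 6 and 4. In cyclic AMP signaling the phosphodiesterase PDE4B was lower (18.04 to 25.8 CPM in replicates 1 and 2 and 3.29 to 6.36 CPM in replicates 3 and 4) and the cardiac adenylyl cyclase ADCY5 higher (4.72 to 22.6 CPM in replicates 1 and 2 and 30.4 to 49.2 CPM in replicates 3 and 4).

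Single genes of lipid storage, glycolysis and hypoxia were lower, and most mitochondrially encoded, respiratory chain and ribosomal protein genes had small differences below 0. PLIN2, the coat protein of lipid droplets, had 152 and 147 CPM in the scrambled and 238 and 261 CPM in the GapmeR libraries of replicates 1 and 2, against 70.1 and 69.6 CPM and 62.4 and 70.4 CPM in those of replicates 3 and 4. PLIN2 was the 1 lower of 37 fatty acid uptake and oxidation genes tested, and none was higher. The glucose transporter SLC2A3 and the neuronal enolase ENO2 were the 2 lower of 23 glycolysis genes (-1.05 and -1.51). SLC2A3 differed by -0.59 in the scrambled and -1.50 in the GapmeR libraries. Of 20 hypoxia genes VEGFA, ADM and DDIT4 were lower (-1.003, -1.28 and -1.57) and 1, LOX, was higher. VEGFA differed by -0.51 in the scrambled and -1.50 in the GapmeR libraries. Among all genes tested 3.05% were lower and 4.36% higher, and the counts of these lists were not tested against those shares. None of 13 mitochondrially encoded genes was counted, but all 13 differences were below 0 (median -0.40), and their sum was 59265 to 83948 CPM in replicates 1 and 2 and 43974 to 52810.0 CPM in replicates 3 and 4. None of 40 nuclear-encoded respiratory chain genes was counted either, with 30 differences below 0 (median -0.12) and a sum of 24278 to 27436 CPM in replicates 1 and 2 and 23114 to 24043 CPM in replicates 3 and 4. Of 81 cytoplasmic ribosomal proteins 1, RPL22L1, was counted as lower and 70 differences were below 0 (median -0.23), with a sum of 19874 to 24764 CPM in replicates 1 and 2 and 18137 to 19065 CPM in replicates 3 and 4. None of these 3 sums overlapped between the sets. Of 26 cholesterol genes 3 were higher, among them HSD17B7 (1.01), and none lower, with medians of 0.35, and 0.03 and 0.63 in the scrambled and GapmeR libraries alone. HSD17B7 differed by 0.44 in the scrambled and 1.60 in the GapmeR libraries.

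Imprinted genes differed in both directions, and the HOX genes tested were lower. H19, the maternally expressed imprinted noncoding RNA, had 7.32 and 6.16 CPM in scrambled replicates 3 and 4 and 9.05 and 10.2 CPM in GapmeR replicates 3 and 4, where replicates 1 and 2 had 55.6 and 53.9 CPM with the scrambled oligonucleotide and 64.4 and 74.9 CPM with the GapmeR. The difference of H19 was -2.94 ± 0.14 (SE) in all 8 libraries, -3.02 in the scrambled and -2.85 in the GapmeR libraries. The paternally expressed PEG10 ranged from 169 to 341 CPM in replicates 1 and 2 and 65.6 to 70.7 CPM in replicates 3 and 4, and DLK1 from 1.63 to 2.20 CPM in replicates 1 and 2 and 0.471 to 0.880 CPM in replicates 3 and 4. PHLDA2, a maternally expressed gene that restrains placental growth, was higher and ranged from 0.430 to 1.87 CPM in replicates 1 and 2 and 2.32 to 5.37 CPM in replicates 3 and 4, and DIRAS3, which encodes a small GTPase, was higher at no more than 1.05 CPM. Of 16 imprinted genes these 2 were higher and the 3 before them lower, with a median of -0.12. All 3 HOX genes that passed the filter, of 39 in the table, were lower (HOXB2, HOXB3 and HOXB13), and HOXB2 ranged from 14.4 to 17.6 CPM in replicates 1 and 2 and 4.08 to 6.05 CPM in replicates 3 and 4. MALAT1, an abundant nuclear noncoding RNA, was higher (1.04), with 479.6 and 475 CPM in the scrambled and 872 and 848 CPM in the GapmeR libraries of replicates 1 and 2, against 971 and 1029 CPM and 1507 and 1965 CPM in those of replicates 3 and 4. TTN-AS1, which runs antisense to the titin gene and cannot be told from it without strand, was higher (1.63).

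Immediate early genes were lower in 3 of 27 cases, FOS, FOSB and JUN, the components of the AP-1 factor, with none higher. JUN ranged from 35.5 to 68.1 CPM in replicates 1 and 2 and 20.1 to 34.5 CPM in replicates 3 and 4, FOS from 10.8 to 25.3 CPM in replicates 1 and 2 and 4.86 to 8.18 CPM in replicates 3 and 4, and FOSB stayed under 1.5 CPM in every library. The replication helicase genes MCM2 (33.05 to 62.3 CPM in replicates 1 and 2 and 11.7 to 20.1 CPM in replicates 3 and 4) and MCM5 (60.6 to 97.9 CPM in replicates 1 and 2 and 21.7 to 50.5 CPM in replicates 3 and 4) were the 2 lower of 40 cell cycle genes. The median of all 40 was -0.96 in the scrambled and 0.82 in the GapmeR libraries.

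**Figure D4:**
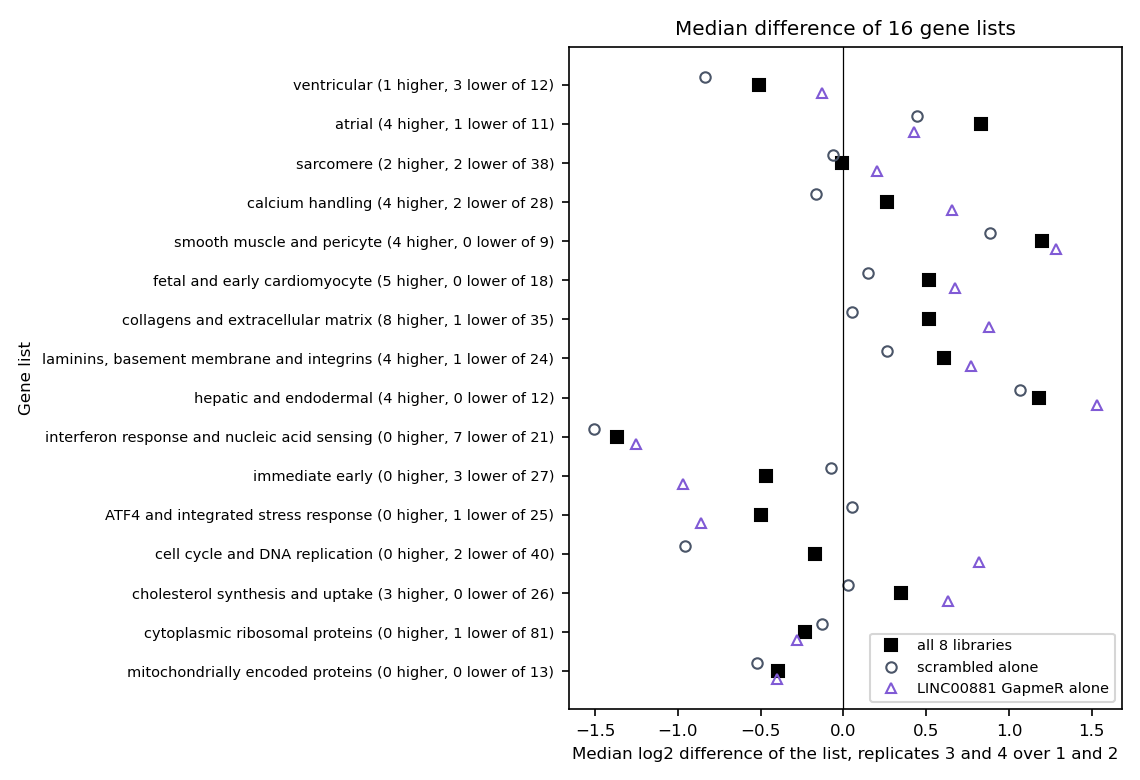
Median log2 difference of replicates 3 and 4 over 1 and 2 (x axis) for 16 gene lists (y axis), with black squares for all 8 libraries, open circles for the scrambled libraries alone and open triangles for the GapmeR libraries alone, and the number of genes higher and lower of those tested after each name. The interferon list lies at -1.37 and the smooth muscle list at 1.20, while the cell cycle list lies at -0.96 in the scrambled and 0.82 in the GapmeR libraries.

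Of the protein-coding genes counted in all 8 libraries and in the scrambled libraries alone, with a mean of at least 5 CPM in the set where they were higher, the 12 with the highest difference were TAC3, SYT2, GRIK1, AQP4, POU4F1, KCNA4, CASQ2, MYH11, DPYSL5, CRMP1, FRMPD4 and SLC10A4. Many of them are best known from neurons or glia. AQP4, the water channel of astrocytes, had 3.01 and 3.78 CPM in the scrambled and 1.12 and 0 CPM in the GapmeR libraries of replicates 1 and 2, against 56.99 and 57.2 CPM and 87.3 and 88.03 CPM in those of replicates 3 and 4. CRMP1, a phosphoprotein of growing axons, had 77.1 and 78.6 CPM in scrambled replicates 3 and 4 and 103 and 80.7 CPM in GapmeR replicates 3 and 4, where replicates 1 and 2 had 3.93 and 1.32 CPM with the scrambled oligonucleotide and 4.87 and 5.78 CPM with the GapmeR (4.49 ± 0.34). The others were low in replicates 1 and 2. TAC3, a tachykinin precursor, had 8.22 to 13.1 CPM in replicates 3 and 4 and at most 0.307 CPM in replicates 1 and 2. POU4F1, a sensory neuron factor, had 12.5 to 16.3 CPM against at most 0.773 CPM. The potassium channel KCNA4 had 3.26 to 8.61 CPM, and of replicates 1 and 2 only 1 scrambled library had any count of it (0.773 CPM). TAC3, POU4F1 and KCNA4 were so low in replicates 1 and 2 that the size of their fitted differences rests on few reads in that set. SYT2, a synaptic vesicle calcium sensor, had 9.86 and 12.6 CPM in scrambled and 1.95 and 1.41 CPM in GapmeR replicates 3 and 4, and at most 0.154 CPM in replicates 1 and 2. The growth cone protein DPYSL5, the glutamate receptor subunit GRIK1, FRMPD4 and the transporter SLC10A4 had at most 2.18, 0.515, 0.460 and 0.583 CPM in replicates 1 and 2 and at least 10.04, 4.53, 5.39 and 7.77 CPM in replicates 3 and 4.

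Among the 12 with the lowest difference were KLHL14, DHRS9, BST2, LRAT, EPSTI1, TNK1, MYL2, ADA2, ODAM, LBX2 and COL1A2, and those not yet described follow. KLHL14, a Kelch-domain protein, had 23.6 and 33.9 CPM in the scrambled and 33.3 and 12.1 CPM in the GapmeR libraries of replicates 1 and 2, against 1.63 and 0.880 CPM and 1.77 and 1.99 CPM in those of replicates 3 and 4 (-4.04 ± 0.41). The kinase TNK1 ranged from 4.21 to 10.1 CPM in replicates 1 and 2 and 0.414 to 1.01 CPM in replicates 3 and 4, the homeobox gene LBX2 from 6.06 to 11.5 CPM in replicates 1 and 2 and 0.688 to 1.66 CPM in replicates 3 and 4, and ODAM from 3.59 to 9.19 CPM in replicates 1 and 2 and 0.569 to 1.04 CPM in replicates 3 and 4. In the annotation, 291 of the 791 higher and 193 of the 552 lower genes share exon bases with another gene. Among them were MYH7, NPPA, KCNIP2, CRMP1, DPYSL5, GRIK1, POU4F1, SYT2, TAC3, KLHL14, LBX2 and TNK1. The share over all genes tested was not computed, and an effect on the counts was not tested.

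The higher genes were longer in the genome than the lower ones. In the quintile of annotated genes with the longest span, from 93203 to 2473537 bases, 9.67% of 3225 genes were higher and 1.71% lower, and in the shortest quintile, up to 7196 bases, 2.45% of 3226 were higher and 5.46% lower. The median difference went from -0.16 in the shortest to 0.26 in the longest quintile, from -0.09 to 0.11 in the scrambled libraries alone and from -0.29 to 0.40 in the GapmeR libraries alone. Centred on the median of each span decile, 621 genes were higher and 425 lower. These counts cover only the 16122 tested genes with an annotated span, so they are not like for like with the counts over all genes tested.

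**Figure D5:**
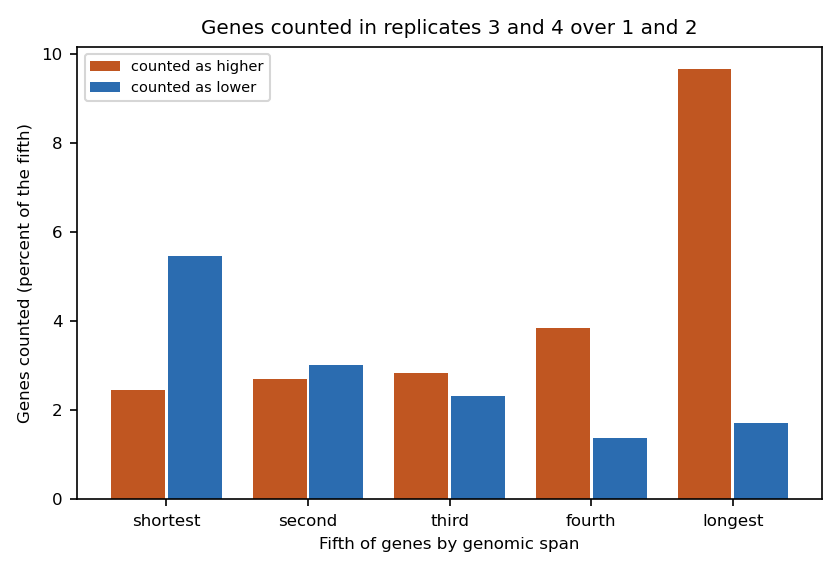
Percent of the genes in each quintile of genomic span (x axis, shortest to longest) that were counted as higher (orange) or lower (blue) in replicates 3 and 4. The share of higher genes is 9.67% in the longest quintile and 2.45% in the shortest, and that of lower genes 1.71% and 5.46%.

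The difference between the sets was also set against the knockdown, as the interaction of set and knockdown. The sets were chosen on these same libraries, which bears on the spread within each pair as well, so the p-values of this fit may be too small and serve here to count and order genes, not as an independent test. With edgeR's quasi-likelihood test and a Benjamini-Hochberg adjusted p under 0.05, 1027 genes (5.67%) had an interaction, 581 negative (a smaller or more negative set difference with the GapmeR) and 446 positive, and 4123 had an unadjusted p under 0.05. Of the 791 higher and 552 lower genes, 39 and 23 were among them. The count depended on single libraries: it was 233, 161, 90 and 104 without scrambled replicates 1, 2, 3 and 4, and 3193, 3748, 329 and 107 without GapmeR replicates 1, 2, 3 and 4. GapmeR replicates 1 and 2 were also the pair furthest from each other, on opposite sides of the third principal component.

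Of the 6 genes with the smallest interaction p and 5 CPM or more on average in the higher set, 5 are given here, and each was higher in scrambled and lower in GapmeR replicates 3 and 4. CMTM5, a membrane protein of the chemokine-like factor family, had 16.05 and 13.7 CPM in scrambled replicates 1 and 2, 20.7 and 20.5 CPM in GapmeR replicates 1 and 2, 109 and 106 CPM in scrambled replicates 3 and 4, and 8.25 and 9.95 CPM in GapmeR replicates 3 and 4. Scrambled replicates 3 and 4 thus stood above the other 6 libraries, an interaction of -4.03 ± 0.24 (SE) on the log2 scale. MIR22HG, the host transcript of a microRNA abundant in heart, had 97.9 and 94.1 CPM in scrambled replicates 3 and 4 and 56.3 and 54.9 CPM in GapmeR replicates 3 and 4, where replicates 1 and 2 had 45.2 and 42.99 CPM with the scrambled oligonucleotide and 190.1 and 147 CPM with the GapmeR. Its interaction was -2.72 ± 0.21, and those of EPHX3, SLC25A34 and CCDC17, all below 14 CPM, were -6.82, -6.63 and -7.80, and these 3 had means under 5 CPM in replicates 1 and 2. These 5 stayed under that threshold in each of 15 alternative fits.

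Among the gene lists, 24 of the 40 cell cycle genes, 8 of the 25 genes of the ATF4 stress response and 10 of the 38 sarcomere genes were past that threshold, beside 5.67% of all genes. CCNA2, cyclin A, chosen for mention after its values were seen, had 42.03 and 42.7 CPM in scrambled replicates 1 and 2, 20.9 and 26.3 CPM in GapmeR replicates 1 and 2, 14.6 and 13.8 CPM in scrambled replicates 3 and 4, and 56.1 and 58.5 CPM in GapmeR replicates 3 and 4. It was lower in replicates 3 and 4 with the scrambled oligonucleotide and higher with the GapmeR, an interaction of 2.85 ± 0.24. The proliferation marker MKI67 had an interaction of 1.45 ± 0.41, which was not past it. TRIB3, a pseudokinase induced by ATF4, went the opposite way, with 30.5 and 23.3 CPM in the scrambled and 163 and 278 CPM in the GapmeR libraries of replicates 1 and 2, against 66.7 and 55.1 CPM and 24.1 and 19.2 CPM in those of replicates 3 and 4. Its interaction was -4.53 ± 0.38, and that of ATF4 itself was -2.11 ± 0.16. Among the genes with a set difference in all libraries, MYH7, ACTA2 and VCAM1 were also past it (1.14, 1.28 and 1.23), whereas MYL2 and CASQ2 were not. Nor was LINC00881 itself (1.45 ± 0.46).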

How the data were processed

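RNA-Seq of hiPSC-CMs gave 1 table of 16 libraries, of which the 8 of the knockdown experiment were analysed. The libraries were made with a stranded total RNA kit. Per the labels the authors used STAR 2.7.3a for alignment, and they deposited whole-number counts for 59385 gene symbols, taken without regard to strand and not normalized. Symbols were matched to GENCODE 29 on GRCh38, and 88.9% of the genes tested had an entry.

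Counts were filtered with filterByExpr (set as the group) and scaled with TMM in edgeR 4.0.16 (R 4.3.3). A quasi-likelihood fit with set and knockdown gave log2 differences. A fit with the interaction gave the scrambled and GapmeR differences and a 2-sided interaction p with Benjamini-Hochberg adjustment over all 18127 genes. Standard errors were approximated as the size of the log2 difference over the square root of its F statistic. Fits were tested on simulated counts. Nothing says that replicates were separate differentiations, so p-values measure only the spread between these libraries, and they may be too small because the sets were chosen on them. Members, lists and rules were chosen with earlier results of these data known. The genes named were LINC00881, the 12 highest and 12 lowest protein-coding genes counted both in all 8 and in the scrambled libraries with a mean of at least 5 CPM in the set where they were higher, up to 4 genes of each list with the largest differences at that level, the first 3 markers of each cell type and 6 interaction genes. Genes beyond these (GJA1, SLN, KCNJ3, FOXA2, DCX, POSTN, PHLDA2, DIRAS3, IFIT5, NRG1, FOSB, DLK1, CCNA2, MKI67, ATF4 and genes listed as counted members) were chosen after their values were seen. Alternatives were other scalings and filters, DESeq2 1.42.0, limma-voom (limma 3.58.1), a replicate block, single treatments, a lower threshold and leaving out each library. Centring on span deciles was added after seeing the data. The results of some genes that the rule names are not reported here.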

Additional observations from a re-analysis of the deposited data

Results flagged for a closer look

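The set difference itself differed between scrambled and GapmeR cells in 1027 genes at an edgeR adjusted p under 0.05, a value that may be too small because the sets were chosen on these libraries. Among the genes named in the report the interaction, as a log2 difference of GapmeR over scrambled, was positive for MYH7 (1.14), KCNIP2 (0.87), ACTA2 (1.28), AFP (1.23), VCAM1 (1.23), DPYSL5 (4.87) and CCNA2 (2.85). It was negative for CSRP3 (-0.93), KCNJ5 (-0.83), INHBA (-2.70), PLIN2 (-0.81), VEGFA (-0.99), TRIB3 (-4.53), ATF4 (-2.11), CMTM5 (-4.03), EPHX3 (-6.82), SLC25A34 (-6.63), MIR22HG (-2.72) and CCDC17 (-7.80). Each was past that threshold.

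A single library was marked as apart from the 3 others of its set, by its gap beside their range, for 10 of 120 genes screened. Some of these gaps were small in CPM. GapmeR replicate 1 was the highest of replicates 1 and 2 for COL1A2 (195 CPM), IRF7 (35.1 CPM), PEG10 (341 CPM), ENO2 (152 CPM) and FOS (25.3 CPM), and GapmeR replicate 2 was for DDIT4 (53.9 CPM). GapmeR replicate 3 was the highest of replicates 3 and 4 for SLC2A3 (109.5 CPM) and CRMP1 (103 CPM) and the lowest for FGF18 (5.93 CPM) and PLIN2 (62.4 CPM). Chance marks about 1 in 20 such groups of 4. With 120 genes screened in both sets, these marks are not read as findings.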

How the results depend on the processing

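All 98 named genes counted as higher or lower kept the sign of their difference in each alternative run (1568 values). The rule that chose these genes asked for sets that did not overlap, so this outcome was largely fixed in advance. Of 256 list medians of at least 0.5 in size, 253 kept their sign. The exceptions were the ATF4 list in the scrambled libraries alone (0.05) and the leukocyte and skeletal myogenic lists, with 2 tested genes each, in the GapmeR libraries alone (-0.42 and -0.22). The cause was not tested. With all genes of at least 1 count, 1239 genes were higher, 5686 higher and 2366 lower in the scrambled libraries alone, and 2775 had an interaction. With a mean of at least 100 counts these were 371 higher and 287 lower, and 639 and 522 in the scrambled libraries alone, from fewer genes tested (11861). GapmeR libraries alone gave 2086 and 1792, and a log2 threshold of 0.5 gave 1348 and 1235. DESeq2 gave 2331 genes with an interaction. Leaving out 1 library gave 890 to 989 higher, 592 to 706 lower, 2448 to 2619 higher and 1362 to 1577 lower in the scrambled libraries alone, and 90 to 3748 with an interaction.

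The replicate numbers were not shown to pair scrambled with GapmeR libraries (correlations of same-numbered deviations of 0.11, 0.08, 0.17 and 0.09). With a replicate block 800 genes were higher, 547 lower and 375 had an interaction.

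Both arms of the scrambled comparison hold 2 libraries, and genes near 1 CPM rest on few reads. Reads of overlapping genes were not told apart.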

Other observations

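The 8 libraries of the plasmid experiment were not used to define the sets. Scaled together with the knockdown libraries, their 4 control plasmid libraries were nearer in mean log2 level to replicates 3 and 4 than to replicates 1 and 2 for 410 of the 552 lower genes (74.3%) and for 432 of the 791 higher genes (54.6%). These genes were chosen by the difference between the sets, and the share over all genes tested was not computed. The plasmid and knockdown experiments were transfected with different material and cannot be compared as treatments, so these are values side by side. MYL2 had 15.8, 17.7, 13.1 and 15.3 CPM in the control plasmid libraries, BST2 1.17, 0.646, 1.05 and 1.79 CPM, and MYH11 26.9, 27.5, 24.9 and 32.2 CPM, all nearer to replicates 3 and 4 than to 1 and 2. CASQ2 with 18.5 to 27.4 CPM and VCAM1 with 240.0, 357, 285 and 285 CPM lay between the sets. LRAT with 43.0, 35.4, 45.5 and 38.3 CPM lay above both, and NPPA with 29.2, 36.2, 26.4 and 27.8 CPM below both.

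Chromosomes gave no difference of the sets as a block. The median log2 difference of the protein-coding genes of each nuclear chromosome was close to that of all genes, between -0.06 and 0.16.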
